A study of Mus musculus with 2 samples.

Results

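The Hox genes encode homeodomain transcription factors that lie side by side in 4 chromosomal clusters. The genes described here are the 39 rows of the RNA table named Hoxa, Hoxb, Hoxc or Hoxd with a number, of 32293 genes in all: 11 in the Hoxa cluster, 10 in Hoxb, 9 in Hoxc and 9 in Hoxd. The 169 chromatin peaks lying between the first and the last such gene of each cluster, plus 50 kb on each side, were taken with them, of 203545 peaks in all: 45 at Hoxa, 49 at Hoxb, 47 at Hoxc and 28 at Hoxd. The choice used names and positions only, and no measured value.

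The mice carried Prrx1-cre and 1 R26R(tdTomato/+) reporter allele. Male and female littermates were pooled at postnatal day 21, and tdTomato+ cells of their femur marrow were sorted by flow cytometry. Prrx1-cre is a transgene with a Prrx1 limb enhancer that switches on the red reporter tdTomato in limb mesenchyme and its descendants. Both groups below came from this sort, and no mouse without the transgene entered. The sort took cells of the femur after the periosteum and both bone ends had been removed, and 15000 nuclei were loaded for paired RNA and ATAC sequencing of the same nuclei (10x Multiome). There was 1 library of each kind, so no comparison below has a replicate and none carries a test. Intervals are 95% limits for counting error only.

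Stromal nuclei (1061) and blood nuclei (174) were told apart by 29 stromal and 31 blood marker genes, none of them a Hox gene. The stromal markers summed to 10350 counts per 1000000 (CPM) of unique molecular identifiers (UMIs, counted RNA molecules) in stromal nuclei and 738 CPM in blood nuclei, and the blood markers to 387 CPM in stromal nuclei and 8575 CPM in blood nuclei. Stromal nuclei held 3425103 UMIs and 32122874 ATAC counts (medians per nucleus 1767 and 28120), and blood nuclei 422754 UMIs and 3922412 ATAC counts (medians 1473.5 and 19164.5). tdTomato RNA was 355 CPM in stromal nuclei and 37.8 CPM in blood nuclei. It was 54.8 CPM in barcodes with few UMIs, which hold free RNA. These are shares of RNA and not amounts. How much of the reporter RNA in blood nuclei was free RNA was not tested. A count of 3, the floor used below, was worth 0.876 CPM of RNA in stromal nuclei and 7.10 CPM in blood nuclei, so a Hox gene at 0 in blood nuclei was not detectable there and not shown to be absent. RNA values were not corrected for gene length, so levels are compared between nuclei for 1 gene and never between genes. Several Hox genes overlap on the same strand (Hoxa3 with Hoxa4, Hoxa5 and Hoxa6; Hoxc5 with Hoxc6, Hoxc8, Hoxc9 and Hoxc10; Hoxd3 with Hoxd4), and how reads in these overlaps were assigned is not given in the sources used here, so the values of these genes are uncertain.

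Hox genes are known as the position code of the body axis and the limb. Their order along a cluster follows the order in which they act, with low-numbered genes acting toward the head and high-numbered genes toward the tail and the limb tip, and genes of the same number in different clusters are paralogs. In the developing limb, paralog groups 9 and 10 act in the segment nearest the body, group 11 in the lower leg and forearm, and group 13 in the foot and hand, with Hoxa and Hoxd genes leading. Hox proteins bind DNA together with TALE homeodomain proteins of the Pbx and Meis families, and Polycomb and trithorax complexes hold the clusters closed or open. Blood stem and progenitor cells also use Hox genes, mainly of the Hoxa and Hoxb clusters, and lose their RNA as they mature.

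The sequences that follow are of peaks that the results turn on. They are the exon-free parts, centred and at most 300 bases long, of the peak with the highest stromal over blood ratio at Hoxa, Hoxb and Hoxc, of the peak with the lowest ratio at Hoxa, each among peaks with at least 50 ATAC counts over both groups, and of 2 peaks that split reticular from osteoblast nuclei at Hoxd and Hoxc. They were read from the RefSeq GRCm38.p6 (mm10) genome, plus strand, 5′ to 3′. Capitals mark a match, on either strand, to a short motif named in the next paragraph.
Hoxa intragenic peak, chr6:52173009-52173218: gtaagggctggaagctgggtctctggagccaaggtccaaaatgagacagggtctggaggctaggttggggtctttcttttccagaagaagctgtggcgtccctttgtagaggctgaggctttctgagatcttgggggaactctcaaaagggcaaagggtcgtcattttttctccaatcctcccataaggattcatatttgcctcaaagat
Hoxb distal peak, chr11:96413633-96413932: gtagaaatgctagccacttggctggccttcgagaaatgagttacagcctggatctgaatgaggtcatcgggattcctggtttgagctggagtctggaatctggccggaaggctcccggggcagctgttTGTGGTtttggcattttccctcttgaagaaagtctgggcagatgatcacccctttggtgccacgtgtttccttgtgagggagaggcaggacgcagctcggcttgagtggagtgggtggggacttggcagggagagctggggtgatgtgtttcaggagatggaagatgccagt
Hoxc peak beside Hoxc11, chr15:102959654-102959953: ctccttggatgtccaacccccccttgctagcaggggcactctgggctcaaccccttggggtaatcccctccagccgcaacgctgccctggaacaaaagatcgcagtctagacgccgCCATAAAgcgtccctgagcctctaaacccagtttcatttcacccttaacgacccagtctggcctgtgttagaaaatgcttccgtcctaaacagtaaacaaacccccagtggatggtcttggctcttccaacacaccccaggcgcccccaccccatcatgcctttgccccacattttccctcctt
Hoxa peak between Hoxa11 and Hoxa13, chr6:52253377-52253676: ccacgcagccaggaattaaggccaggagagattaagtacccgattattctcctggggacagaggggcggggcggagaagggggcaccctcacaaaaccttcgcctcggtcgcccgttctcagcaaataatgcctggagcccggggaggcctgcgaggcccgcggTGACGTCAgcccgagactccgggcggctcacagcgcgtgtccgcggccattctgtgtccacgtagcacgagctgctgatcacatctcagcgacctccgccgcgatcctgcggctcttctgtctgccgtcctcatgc
Hoxd distal peak, reticular, chr2:74795550-74795849: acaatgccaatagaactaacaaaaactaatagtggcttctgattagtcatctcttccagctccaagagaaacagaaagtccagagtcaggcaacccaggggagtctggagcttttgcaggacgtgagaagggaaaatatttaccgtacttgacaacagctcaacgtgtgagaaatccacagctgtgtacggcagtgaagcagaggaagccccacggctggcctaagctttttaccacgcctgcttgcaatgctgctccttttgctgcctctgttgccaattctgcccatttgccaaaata
Hoxc distal peak, osteoblast, chr15:103056381-103056680: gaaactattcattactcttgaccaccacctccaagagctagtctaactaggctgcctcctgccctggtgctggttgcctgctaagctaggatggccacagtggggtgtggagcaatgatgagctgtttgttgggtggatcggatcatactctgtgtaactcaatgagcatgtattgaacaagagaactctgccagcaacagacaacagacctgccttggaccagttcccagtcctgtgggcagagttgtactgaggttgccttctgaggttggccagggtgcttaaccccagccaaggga

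The capitals are TGTGGT (a RUNX core) in the Hoxb distal peak, CCATAAA, the reverse complement of TTTATGG (a posterior HOX site), in the peak beside Hoxc11, and TGACGTCA (the cyclic AMP response element) in the peak between Hoxa11 and Hoxa13. None of the motifs searched was found in the other 3 stretches. Over the 300 central bases of each peak on both strands, TTTATGG was found in 8.28% of the Hox cluster peaks and 4.21% of all 203502 peaks searched, and TTTACGA, its other form, in 3.55% (6 of 169) and 0.516%. TGATNNAT, a joint HOX and PBX site, was found in 10.06% of the Hox cluster peaks and 11.08% of all peaks, with 22.2% at Hoxa. TGACAG (MEIS) was found in 14.2% and 22.5%, TGTGGT in 18.9% and 32.4%, TAATTA (a homeodomain core) in 3.55% and 7.93%, TGACGTCA in 1.18% and 0.672%, the EBF palindrome in 1.18% and 1.502%, and a loose CTCF core in 9.47% and 10.6%. The 2 motifs TAATTA and TGACGTCA and the loose CTCF core were chosen after the sequences had been seen. A match is a description of letters and not a binding site.

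Hox RNA was higher in stromal than in blood nuclei for the 39 genes together, with the largest ratio at Hoxc. Stromal nuclei held 916 Hox UMIs, or 267 CPM (250 to 285), and blood nuclei 17 UMIs, or 40.2 CPM (23.4 to 64.4), a 6.65-fold difference (4.13 to 11.5). Free RNA stood at 75.5 CPM, above the blood nuclei and below the stromal nuclei. By cluster, Hoxa RNA was 517 UMIs in stromal and 12 UMIs in blood nuclei (151 and 28.4 CPM, 5.32-fold, 3.02 to 10.4). Hoxb RNA was 106 and 4 UMIs (30.9 and 9.46 CPM, 3.27-fold, 1.24 to 12.2), and Hoxc RNA 275 and 1 UMI (80.3 and 2.37 CPM, 33.9-fold, 6.04 to 1345). The intervals of Hoxa, Hoxb and Hoxc overlapped, since blood nuclei gave so few molecules. Hoxd RNA was 18 UMIs in stromal nuclei (5.26 CPM), under the blood floor, and 0 in blood nuclei, so no fold can be given. The log2 ratio of all Hox RNA was 2.69 and that of Hoxa 2.35, and with a gate ratio of 4 in place of 2 they were 3.56 and 3.66. That of Hoxc was 4.503 and lay between 3.13 (no mitochondrial limit) and 5.97 (at least 1000 UMIs).

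**Figure D1:**
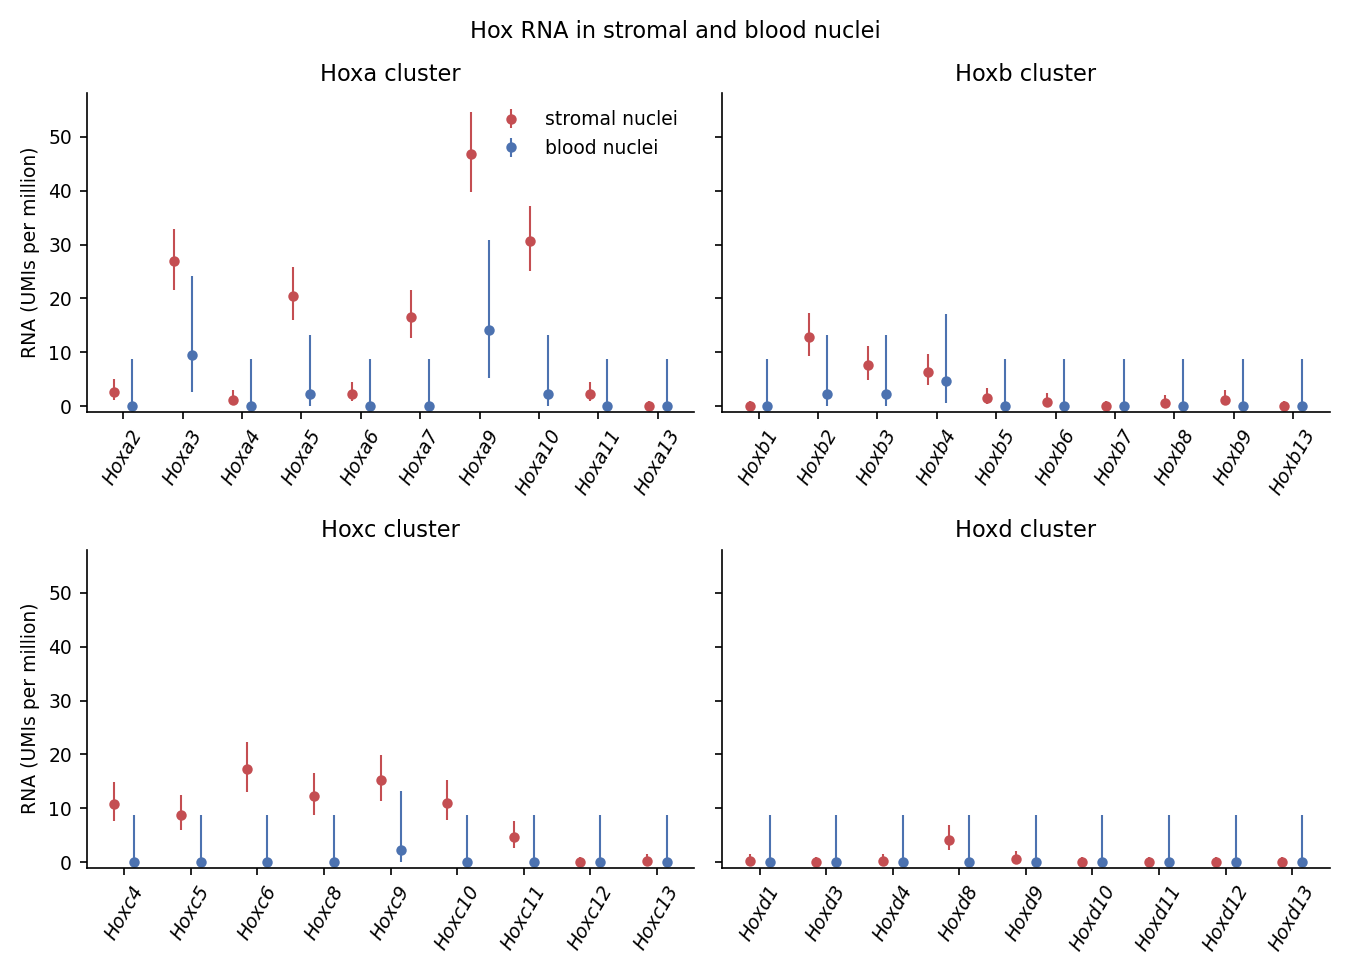
RNA of 38 of the 39 Hox genes in CPM of UMIs, by cluster, with genes in number order on the x axis. Red points are the 1061 stromal nuclei summed and blue points the 174 blood nuclei summed, and lines are exact Poisson 95% intervals. Hoxa9, Hoxa10 and Hoxc6 in stromal nuclei lie above their blood values, and every Hoxd gene lies within the range that a count of 0 allows in blood.

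Of the 39 genes, 14 had at least 20 UMIs over both groups, and 13 of these passed the 2-fold limit toward stromal nuclei and 0 toward blood nuclei, with 0.5 added to each count. Among all 10553 genes with that many UMIs, 21.0% were higher and 30.2% lower, and the median log2 ratio was -0.42, against 2.72 for the 14 Hox genes. Of the 14, 6 had 0 UMIs in blood nuclei, and with these at the bound that a floor of 3 counts sets, 9 passed the limit and the median was 1.25, since 4 bounds were under 2-fold. The count minimum could be reached through the stromal nuclei alone, since they hold most of the UMIs, so the 14 genes are not all the members. Of the other 25 genes, 10 had 0 UMIs in both groups (Hoxa13, Hoxb1, Hoxb7, Hoxb13, Hoxc12, Hoxd3, Hoxd10, Hoxd11, Hoxd12 and Hoxd13) and 15 had between 1 and 16 UMIs, all in stromal nuclei. In all, 31 of the 39 genes had 0 UMIs in blood nuclei.

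In the Hoxa cluster, the values were carried by Hoxa3, Hoxa5, Hoxa7, Hoxa9 and Hoxa10. Hoxa9, a gene of the limb that also acts in blood progenitors and leukaemia, had 160 UMIs in stromal and 6 in blood nuclei (46.7 and 14.2 CPM, 3.29-fold, 1.48 to 9.10). Hoxa10, known in bone for its action on osteoblast genes, had 105 and 1 UMIs (30.7 and 2.37 CPM, 12.96-fold, 2.28 to 517). Both genes were higher in stromal nuclei. Free RNA held 18.2 CPM of Hoxa10, above the level in blood nuclei, and 3.95 CPM of Hoxa9, below it. Hoxa3, a gene of the neck and throat region in the embryo, had 92 and 4 UMIs (26.9 and 9.46 CPM, 2.84-fold, 1.07 to 10.6). Hoxa5 had 70 and 1 UMIs (20.4 and 2.37 CPM, 8.64-fold, 1.501 to 346), and Hoxa7 had 57 and 0 UMIs (16.6 CPM, at least 2.35-fold higher in stromal nuclei). Hoxa11, the lower leg gene, had 8 UMIs in stromal and 0 in blood nuclei.

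In the Hoxb cluster, only the low-numbered genes had UMIs beyond single figures. Hoxb2 had 44 UMIs in stromal and 1 in blood nuclei (12.8 and 2.37 CPM, 5.43-fold, 0.925 to 219) and Hoxb3 had 26 and 1 UMIs (7.59 and 2.37 CPM, 3.21-fold, 0.527 to 132). Both intervals include equal levels. Hoxb4, known as a gene of blood stem cell expansion, was the gene of the 14 that did not pass the 2-fold limit, with 22 and 2 UMIs (6.42 and 4.73 CPM, 1.36-fold, 0.334 to 11.9). Hoxb5, Hoxb6, Hoxb8 and Hoxb9 had between 2 and 5 UMIs, all in stromal nuclei.

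In the Hoxc cluster, 6 genes in a row from Hoxc4 to Hoxc10 were measured and blood nuclei held 1 UMI over all of them. Hoxc6 had 59 UMIs in stromal and 0 in blood nuclei (17.2 CPM, at least 2.43-fold higher), Hoxc8 had 42 and 0 (12.3 CPM, at least 1.73-fold), Hoxc10 had 38 and 0 (11.1 CPM, at least 1.56-fold), Hoxc4 had 37 and 0 (10.8 CPM, at least 1.52-fold) and Hoxc5 had 30 and 0 (8.76 CPM, at least 1.23-fold). Hoxc9, a gene of the trunk and hind limb, had the single blood UMI beside 52 in stromal nuclei (15.2 and 2.37 CPM, 6.42-fold, 1.10 to 258). Hoxc10, a hind limb gene, also stood at 7.91 CPM in free RNA. Hoxc11 had 16 UMIs, all stromal, and Hoxc13, known for hair and nails, had 1.

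In the Hoxd cluster, Hoxd8 held 14 of the 18 UMIs, all of them stromal (4.09 CPM). The others were 2 UMIs of Hoxd9 and 1 each of Hoxd1 and Hoxd4, and the limb genes Hoxd10 to Hoxd13 had none. Read by number over all clusters, paralog groups 1 to 8 held 530 UMIs in stromal and 9 in blood nuclei (155 and 21.3 CPM), and groups 9 and 10 held 361 and 8 UMIs (105 and 18.9 CPM). Groups 11 to 13 held 25 UMIs in stromal and 0 in blood nuclei (7.30 CPM). Of these 25, 16 were Hoxc11, 8 Hoxa11 and 1 Hoxc13, and group 12 had no UMI.

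The Hox RNA of the blood group came mainly from a few nuclei. The marker list for blood progenitors picked 4 of the 174 blood nuclei, which held 33 UMIs of Mecom, 21 of Hlf, 11 of Flt3 and 7 of Kit, genes of blood stem and progenitor cells, but 1 of Cd34, 1 of Mpo, 1 of Prtn3 and 0 of Elane. They also held 20 UMIs of Runx2, a gene of the stromal marker list, and 0 of Lepr and Cxcl12. They held 11 of the 17 blood Hox UMIs, or 561 CPM (280 to 1004), and the other 170 blood nuclei 6 UMIs, or 14.9 CPM (5.46 to 32.4). All 4 Hoxa3 UMIs, 5 of the 6 Hoxa9 UMIs and 1 each of Hoxa5 and Hoxb3 were in the 4 nuclei, and both Hoxb4 UMIs were in others. Without them, the difference between stromal and blood nuclei was 17.97-fold (8.22 to 49.1). With 4 nuclei, this group lay under the minimum of 20 set for a description, and it was singled out after its values had been seen.

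At least 1 Hox UMI was found in 43.5% of stromal nuclei (40.5 to 46.6) and 5.17% of blood nuclei (2.39 to 9.59), and UMIs of 2 or more Hox genes in 16.8% and 1.15%. After thinning each nucleus to 500 UMIs, the shares were 14.7% of stromal and 1.72% of blood nuclei. B-lymphoid nuclei had none (0 of 36, median 1768.5 UMIs, which allows up to 8.33% of nuclei with a Hox UMI, or 9.74% by the Clopper-Pearson limit), nor had granulocyte nuclei (0 of 29, median 1154 UMIs, up to 10.3% or 11.9%), and erythroid nuclei had a Hox UMI in 2 of 67 (2.99%, median 1251 UMIs). These limits say nothing of nuclei that express a gene without a UMI. The stromal share was above the share in each of these blood groups before and after thinning.

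Of the 3 stromal groups with at least 20 nuclei, reticular nuclei had the highest Hox RNA. Reticular nuclei (293, gated by Lepr, Cxcl12 and other genes of marrow reticular cells) held 343 Hox UMIs, or 468 CPM (420 to 520). Osteoblast and osteocyte nuclei (217, gated by Sp7, Smpd3 and others) held 263 UMIs, or 204 CPM (180 to 230), and chondrocyte nuclei (109, gated by cartilage genes) 66 UMIs, or 171 CPM (132 to 218). The 418 stromal nuclei in no such group stood at 233 CPM (202 to 266). A Hox UMI was found in 59.0% of reticular, 53.0% of osteoblast and 28.4% of chondrocyte nuclei, with median depths of 1977, 2820 and 1191 UMIs, and after thinning in 21.5%, 13.4% and 8.26%. The intervals of the reticular and osteoblast CPM did not overlap, those of osteoblast and chondrocyte CPM did.

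**Figure D2:**
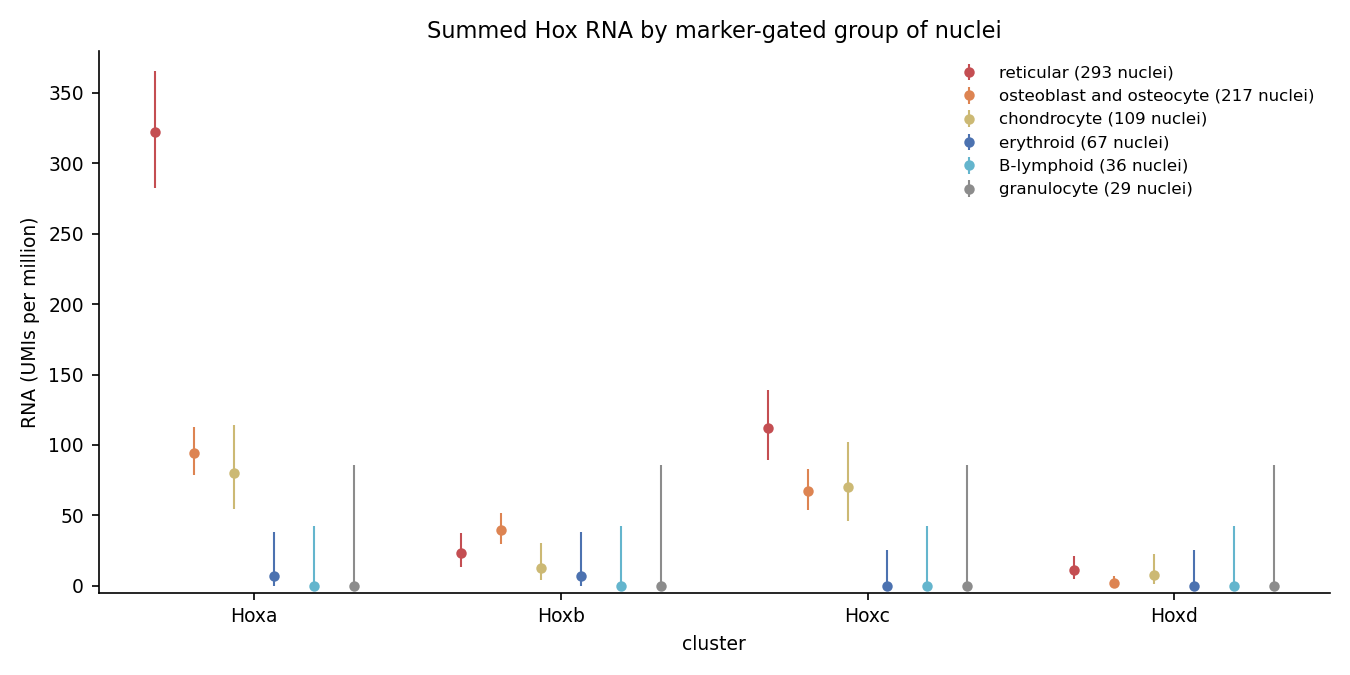
Summed RNA of each Hox cluster in CPM of UMIs for 6 groups of nuclei gated by marker genes, 3 stromal ones first and then 3 blood ones. Points are sums over nuclei and lines exact Poisson 95% intervals. Hoxa RNA was 322 in reticular, 94.7 in osteoblast and 80.4 in chondrocyte nuclei, and Hoxb RNA was 23.2, 39.6 and 12.97.

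The clusters differed between reticular and osteoblast nuclei. Hoxa RNA was 236 UMIs in reticular and 122 in osteoblast nuclei (322 and 94.7 CPM, 3.40-fold, 2.72 to 4.27) and Hoxc RNA 82 and 87 UMIs (112 and 67.5 CPM, 1.66-fold, 1.21 to 2.27). Hoxb RNA ran the other way, with 17 UMIs in reticular and 51 in osteoblast nuclei (23.2 and 39.6 CPM, ratio 0.586, 0.317 to 1.03), an interval that includes equal levels. The median of all 7962 genes measured was itself higher in reticular nuclei, by 0.66 on the log2 scale. Set against that median, the log2 ratio was 1.10 for Hoxa, 0.070 for Hoxc and 0.54 for all Hox genes together, so Hoxc RNA lay near the median of all genes.

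Among single genes with enough UMIs, those of Hoxa and Hoxb2 ran as their cluster sums did, and those of Hoxc were mixed. Hoxa3 had 51 UMIs in reticular and 13 in osteoblast nuclei (69.6 and 10.1 CPM, 6.90-fold, 3.70 to 13.8), Hoxa5 had 36 and 8 (7.92-fold, 3.62 to 19.7), and Hoxa9 had 69 and 46 (94.2 and 35.7 CPM, 2.64-fold, 1.79 to 3.92). Hoxc6 had 27 and 12 UMIs (36.8 and 9.31 CPM, 3.96-fold, 1.94 to 8.58). Hoxc4, Hoxc5 and Hoxc8 had ratios of 1.76, 1.32 and 1.35, with intervals that include equal levels. Hoxb2, by contrast, had 4 UMIs in reticular and 24 in osteoblast nuclei (5.46 and 18.6 CPM, ratio 0.293, 0.0739 to 0.853), and Hoxc9 had 11 and 24 (ratio 0.806, 0.356 to 1.71). Of the 11 Hox genes with enough UMIs, 6 were higher in reticular nuclei by 2-fold and 1 lower, where 34.2% of all genes were higher and 6.68% lower. Hoxa3, Hoxa5, Hoxa7 and Hoxc6 reached the minimum alone only in reticular nuclei, and Hoxb2 and Hoxc9 only in osteoblast nuclei. This count does not describe the other members. Between reticular and chondrocyte nuclei, 5 of 6 Hox genes were higher in reticular nuclei and 0 lower. Of all genes, 28.2% were higher and 10.5% lower. All 6 reached the minimum of 20 UMIs through reticular nuclei alone and none through chondrocyte nuclei, so the count does not describe the other members. Between chondrocyte and osteoblast nuclei, 0 of 4 Hox genes were higher in chondrocyte nuclei and 2 lower. Of all genes, 19.3% were higher and 9.07% lower. These 4 genes reached the minimum through osteoblast nuclei alone. Hoxa9 had 69 UMIs in reticular and 5 in chondrocyte nuclei (7.26-fold, 2.97 to 23.1).

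The chromatin of the clusters was also more open in stromal nuclei in CPM. Of the 126 Hox cluster peaks with at least 50 ATAC counts over both groups, 85 (67.5%) were higher in stromal nuclei by 2-fold and 5 (3.97%) lower. A peak could reach this minimum through stromal nuclei alone, since they hold most of the ATAC counts, so the 126 peaks and the shares by cluster do not describe all the members. Among all 104871 peaks with that many counts, 56.1% were higher and 13.5% lower, and the median log2 ratio was 1.45. By cluster, the median log2 ratio of these peaks was 3.20 at Hoxc, 1.66 at Hoxa, 0.61 at Hoxb and 0.73 at Hoxd, and 34 of 36 Hoxc peaks (94.4%) were higher, 27 of 38 Hoxa peaks (71.1%), 16 of 34 Hoxb peaks (47.1%) and 8 of 18 Hoxd peaks (44.4%). Of the 5 lower peaks, 4 were in Hoxb and 1 in Hoxa. Over all members, counts of any size included, 12 of 47 Hoxc, 11 of 45 Hoxa, 9 of 49 Hoxb and 6 of 28 Hoxd peaks had no blood count. Of the peaks at Hox start sites 29 of 46 were higher, where 36.9% of all peaks within 500 bases of a gene start were higher and 14.7% lower. Of the Hox cluster peaks not at a Hox start site, 56 of 80 were higher. Of all peaks not within 500 bases of any gene start, 62.4% were higher and 13.1% lower. The 2 sets are not alike, since some of the 80 lie within 500 bases of the start of another gene.

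Summed over all peaks of the cluster, Hoxc had 354 CPM of ATAC counts in stromal and 49.5 in blood nuclei (7.15-fold, 6.21 to 8.29), a log2 ratio of 2.84 that was 2.05 with granule and globin genes in the blood gate and 2.22 with no mitochondrial limit. Hoxa had 412 and 180 (2.29-fold, 2.12 to 2.47), Hoxb 214 and 107 (2.005-fold, 1.82 to 2.22) and Hoxd 90.7 and 50.2 (1.80-fold, 1.56 to 2.10). The interval of Hoxc did not overlap those of the other clusters. Relative to the median of all peaks, the log2 ratio was 1.39 for Hoxc, but -0.25 for Hoxa, -0.45 for Hoxb and -0.60 for Hoxd, so the direction of these 3 clusters depends on the scaling.

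**Figure D3:**
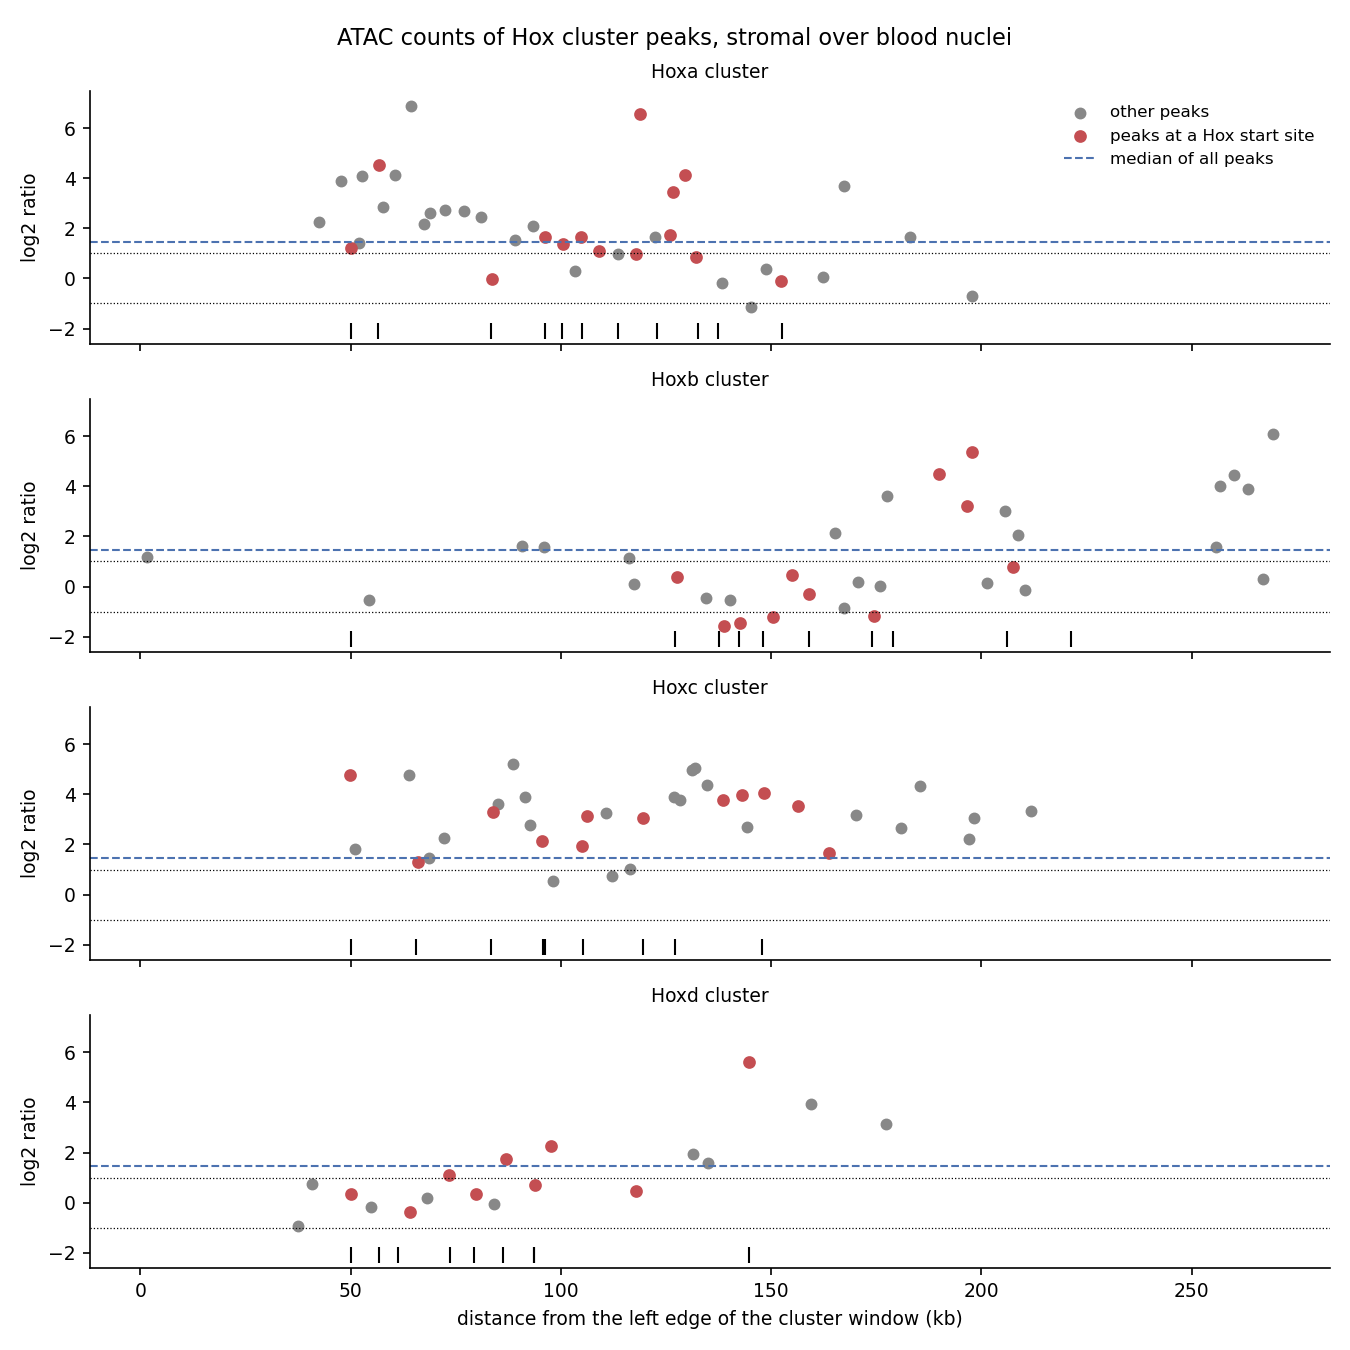
Log2 ratio of ATAC counts, stromal over blood nuclei, of the 126 Hox cluster peaks with at least 50 counts, by distance in kb along each cluster window. Red points are peaks at a Hox start site, grey points other peaks, ticks the gene starts, dotted lines the 2-fold limits and the dashed line the median of all peaks (1.45). Most Hoxc points lie above the dashed line, and the 4 lowest Hoxb points are start-site peaks of Hoxb8, Hoxb7, Hoxb6 and Hoxb4.

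Peaks within 1 cluster differed as much as the clusters did. The intragenic Hoxa peak printed above, at chr6:52172316-52173218 in the span of Hoxa3, had 476 counts in stromal and 0 in blood nuclei (14.8 CPM, at least 19.4-fold higher). Of the 2 peaks at the Hoxa9 start, chr6:52226860-52227518 had 384 and 0 counts (at least 15.6-fold). The other, chr6:52225707-52226522, had 706 counts in stromal and 43 in blood nuclei (2.005-fold, 1.47 to 2.80). Together they had 1090 and 43 counts (log2 ratio 1.61), so the Hoxa9 start was not without counts in blood nuclei. The Hoxa peak between Hoxa11 and Hoxa13 ran the other way, with 53 counts in stromal and 14 in blood nuclei (1.65 and 3.57 CPM, ratio 0.462, 0.253 to 0.902). The highest ratio at Hoxb lay at the distal peak chr11:96413323-96414242, intergenic and 48.0 kb from the Hoxb1 start, with 1393 counts in stromal and 2 in blood nuclei (43.4 and 0.510 CPM, 85.0-fold, 23.5 to 703). It was close to even among stromal groups, with 41.1 CPM in reticular, 50.04 CPM in osteoblast and 42.5 CPM in chondrocyte nuclei. No Hoxb1 UMI was found in either group.

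In the middle of the Hoxb cluster, several start sites were more open in blood nuclei. The start-site peaks of Hoxb8 (37 counts in stromal and 13 in blood nuclei, 1.15 and 3.31 CPM, ratio 0.348, 0.181 to 0.713) and Hoxb7 (64 and 21 counts, 1.99 and 5.35 CPM, ratio 0.372, 0.224 to 0.642) were lower in stromal nuclei, as was a peak of Hoxb6 (106 and 30 counts, ratio 0.431, 0.285 to 0.671). Together the 4 start-site peaks of Hoxb6 had 254 counts in stromal and 41 in blood nuclei (7.91 and 10.5 CPM). The other Hoxb6 peaks had ratios of 2.08, 1.89 and 1.45, with intervals that include equal levels. Hoxb4 had 241 counts in stromal and 67 in blood nuclei (7.502 and 17.1 CPM, log2 ratio -1.19). A short way on, the Hoxb3 start-site peaks had 583 counts in stromal and 3 in blood nuclei (18.1 and 0.765 CPM). Blood progenitors are known to use Hoxb4, but the RNA of Hoxb4 in blood nuclei was 2 UMIs.

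At Hoxc, the peak beside Hoxc11, chr15:102959390-102960217, had 150 counts in stromal and 0 in blood nuclei (at least 6.11-fold), and a peak in an intron of Hoxc6, chr15:103002570-103003231, had 402 and 1 (49.1-fold, 8.76 to 1944). Among Hoxc peaks with at least 50 counts, the least different lay in Hoxc10 and had 78 and 6 counts (2.43 and 1.53 CPM, 1.59-fold, 0.697 to 4.46). At Hoxd, the Hoxd1 start site had 199 counts in stromal and 0 in blood nuclei (6.19 CPM, at least 8.10-fold), although Hoxd1 had 1 UMI. A peak 14.9 kb from the Hoxd1 start had 63 and 0 counts (at least 2.56-fold).

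Across the 37 Hox genes with a start-site peak, start-site ATAC and RNA in stromal nuclei had a Spearman rho of 0.61, a description over genes of 1 sample that are not independent and whose RNA was not corrected for length. The genes without such a peak within 500 bases were Hoxa11 and Hoxd12. Several genes chosen after their values were seen had an open start site and few UMIs. The Hoxc10 start site had 2081 counts in stromal and 57 in blood nuclei (64.8 and 14.5 CPM) beside 38 and 0 UMIs. Hoxa4 had 893 and 109 counts, the same level in both groups (27.8 and 27.8 CPM), with 4 UMIs. Hoxc13 had 331 counts in stromal and 1 in blood nuclei with 1 UMI, Hoxa13 had 321 and 42 counts (9.99 and 10.7 CPM) with none, and Hoxd13 130 and 12 counts with none. At this depth a gene with no UMI was not detectable, which does not show that it was silent.

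Chromatin sums of reticular and osteoblast nuclei were set beside the RNA sums, of which Hoxd had 8 and 3 UMIs (4.69-fold, 1.13 to 27.5). The Hoxa peaks had 5016 counts in reticular and 2200 in osteoblast nuclei (1.34-fold, 1.28 to 1.41) and the Hoxb peaks 2131 and 1603 (ratio 0.782, 0.733 to 0.835). The Hoxc peaks had 3937 and 2094 counts (1.11-fold, 1.05 to 1.17), and the Hoxd peaks 1183 and 353 (1.97-fold, 1.75 to 2.23). Chondrocyte nuclei sided with reticular nuclei at Hoxd, with 362 counts (2.10-fold over osteoblast nuclei, 1.81 to 2.44), and had the lower Hoxb value, 544 counts (ratio 0.694, 0.629 to 0.766). Of 89 Hox cluster peaks with enough counts, 20 were higher in reticular nuclei and 9 lower, where 31.8% of all peaks were higher and 18.1% lower. For reticular over chondrocyte nuclei, 12 of 84 were higher and 8 lower (27.0% and 8.16% of all peaks), and for chondrocyte over osteoblast nuclei 7 of 58 were higher and 8 lower (8.99% and 18.2%). Here too a peak could reach the minimum through a single group.

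The largest differences between the 2 stromal groups lay in peaks at the edges of the clusters and ran in both directions. These peaks were picked after their values had been seen. The distal Hoxd peak printed above, chr2:74795252-74796147, 32.7 kb from the Hoxd1 start, had 110 counts in reticular and 2 in osteoblast nuclei (10.3 and 0.320 CPM, 32.4-fold, 8.75 to 271). It had 18 counts in chondrocyte nuclei (5.89 CPM) and 2 in blood nuclei. The distal Hoxc peak printed last, chr15:103056071-103056991, intergenic and beyond the 3′ end of Hoxc4, had 0 counts in reticular and 51 in osteoblast nuclei (8.15 CPM, at least 28.9-fold lower in reticular nuclei). Its neighbour chr15:103051510-103052422 had 8 and 76 counts (0.753 and 12.2 CPM, ratio 0.0619, 0.0258 to 0.128). Both Hoxc peaks were low in chondrocyte nuclei, at 1.96 and 1.64 CPM. Another distal Hoxc peak, chr15:103082580-103083476, was the reverse, with 83 counts in reticular and 8 in osteoblast nuclei (6.10-fold, 2.96 to 14.6) and 0 in chondrocyte nuclei.

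**Figure D4:**
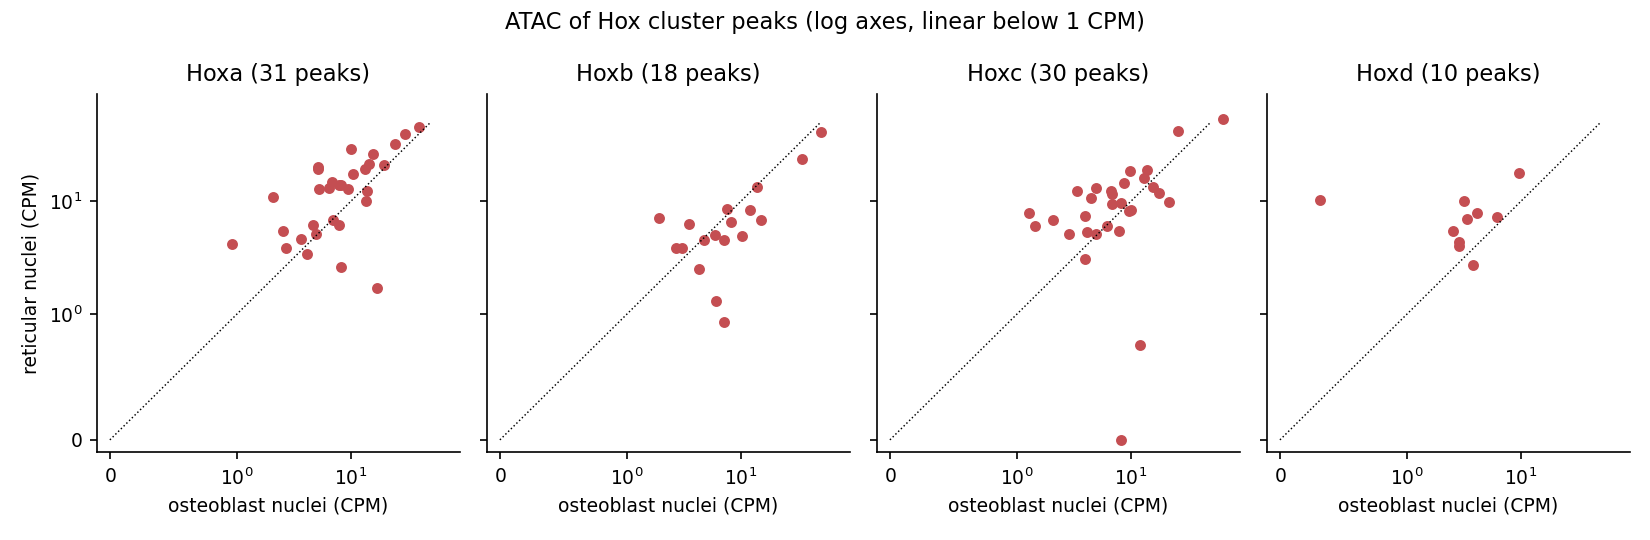
ATAC CPM of each Hox cluster peak in reticular nuclei (y axis) and osteoblast nuclei (x axis), for the 89 peaks with at least 50 counts over both, by cluster. Axes are logarithmic, linear below 1, and the dotted line marks equal values. At Hoxd 1 point stands at 10.3 against 0.320, and at Hoxc 1 point stands at 0 against 8.15.

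Inside Hoxa, neighbouring peaks in the span from Hoxa3 to Hoxa4 also parted. The peak chr6:52180207-52181129 had 18 counts in reticular and 107 in osteoblast nuclei (1.69 and 17.1 CPM, ratio 0.0990, 0.0565 to 0.164), and chr6:52188933-52189709, 2.43 kb from the Hoxa4 start, had 115 and 13 (10.8 and 2.08 CPM, 5.20-fold, 2.93 to 10.1). At Hoxb, a start-site peak of Hoxb3, chr11:96333725-96334582, had 10 counts in reticular and 45 in osteoblast nuclei (ratio 0.131, 0.0588 to 0.263). The peak chr11:96349620-96350517, next to the annotated 5′ end of Hoxb2, had 52 and 64 counts (4.89 and 10.2 CPM, ratio 0.478, 0.325 to 0.700), beside the lower Hoxb2 RNA of reticular nuclei.

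Other genes of limb position were read from fixed lists. Of the genes that tell hind limb from forelimb, Pitx1, the hind limb selector, had 46 UMIs in stromal and 0 in blood nuclei (13.4 CPM, at least 1.89-fold higher). Isl1 had 19 UMIs, Tbx4 of the hind limb 5 and Tbx5 of the forelimb 2, all in stromal nuclei and all under the blood floor. Among the Hox cofactors and proximal limb genes, 4 of the 9 with enough UMIs were higher and 2 lower in stromal nuclei. Among all genes, 21.0% were higher and 30.2% lower. The 4 higher genes reached the count minimum through stromal nuclei alone, and the 2 lower genes reached it in each group. This count does not describe genes under the minimum. Meis2 had 197 and 0 UMIs (57.5 CPM, at least 8.11-fold), Shox2, a gene of the proximal limb bones, 263 and 1 (76.8 and 2.37 CPM, 32.5-fold, 5.78 to 1287), and Pknox2 135 and 1 (16.7-fold, 2.94 to 663). Meis1, which blood progenitors share, had 171 and 22 UMIs (49.9 and 52.0 CPM, ratio 0.959, 0.614 to 1.57), and Pknox1, with 56 and 23, was lower (16.3 and 54.4 CPM, ratio 0.301, 0.182 to 0.512).

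Of 16 limb patterning factors, 3 had enough UMIs, each through stromal nuclei alone, and 14 had 0 UMIs in blood nuclei. All 3 were higher in stromal nuclei, where 21.0% of all genes were higher. Prrx1, whose enhancer drives the Cre used for sorting, had 605 UMIs in stromal and 6 in blood nuclei (177 and 14.2 CPM, 12.4-fold, 5.68 to 34.0), Gli3, the repressor of the hedgehog pathway, 379 and 4 (11.7-fold, 4.53 to 43.1), and Msx1 41 and 0 (at least 1.69-fold). Of the 19 Polycomb and trithorax genes with enough UMIs, 1 was higher and 5 were lower, a smaller share lower than the 30.2% of all genes, with a median log2 ratio of -0.57 beside -0.42 for all genes. The higher gene was Bmi1, of Polycomb complex 1, with 46 and 1 UMIs (5.68-fold, 0.969 to 229). Bmi1 reached the count minimum through stromal nuclei alone. Ezh2, the methyltransferase of Polycomb complex 2, had 260 and 165 UMIs (75.9 and 390 CPM, ratio 0.194, 0.159 to 0.238), Suz12, its partner, 168 and 92 (ratio 0.225, 0.174 to 0.294), and Ctcf, which divides Hox clusters into domains, 145 and 60 (ratio 0.298, 0.219 to 0.410). Of the noncoding transcripts within the clusters, Hoxb3os had 33 and 1 UMIs (9.63 and 2.37 CPM, 4.07-fold, 0.682 to 166), Hotairm1 27 and 3 (7.88 and 7.10 CPM, 1.11-fold, 0.342 to 5.72), Hoxa11os 13 and 0, and Hottip and Haglr none.

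RNA of other cell types was measured beside these groups. Endothelial markers summed to 59.6 CPM in stromal and 109 CPM in blood nuclei, skeletal muscle markers to 30.1 and 44.9 CPM, and glial markers to 14.3 and 4.73 CPM. Of 7 skeletal muscle markers, 4 were at 0 in stromal and 6 in blood nuclei, and of 8 endothelial markers 0 were at 0 in stromal and 3 in blood nuclei. The granule and globin genes, the most abundant blood RNA, stood at 1103 CPM in stromal and 41130 CPM in blood nuclei. The median mitochondrial share was 4.99% in stromal and 6.001% in blood nuclei, and 4.76% in reticular and 5.38% in osteoblast nuclei. Their part in the Hox differences was not tested.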

How the data were processed

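RNA and ATAC counts came from 1 deposited matrix of 728634 barcodes, made by the authors with Cell Ranger ARC 2.0.0 on mm10, unfiltered: whole-number counts of UMIs per gene (35460453 in all) and ATAC counts per peak (191398837), with the barcodes shared by both libraries. Peak and gene coordinates were checked against GRCm38, and a separate list of 153981 peak intervals, with no counts, was used for overlap only. Of 4663 barcodes that reached 500 UMIs and 1000 ATAC counts, the 1427 whose mitochondrial UMIs made up 10% or less were kept. Scrublet in scanpy 1.11.5 marked 5 as doublets, under 0.5%, so the 16 of highest score were removed, leaving 1411. A nucleus was stromal or blood with at least 3 UMIs of 1 marker list and at least 2 times those of the other, which left 176 ungated. Of the gated nuclei, 66 stromal and 28 blood nuclei had a ratio under 4. Stromal and blood subgroups needed 2 UMIs and over 2 times every other list of their group.

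Counts were summed per group and given as CPM with exact Poisson intervals, shares with Clopper-Pearson intervals and ratios with the exact conditional binomial interval (scipy 1.17.1), checked on simulated counts. Log2 ratios add a pseudocount of 0.5 to each count. A gene was called at 20 UMIs and a peak at 50 counts, at 2-fold. Named were every Hox gene with 20 UMIs, the 3 peaks of highest and lowest ratio per cluster among which examples were taken, start-site peaks, and up to 4 members per list, with others chosen after their values were seen. Results of 1 Hox gene and 1 sequence are not reported here. The members and lists were chosen with earlier results of these data known. The alternatives were other gates, limits, scalings, free RNA subtraction and leaving out the progenitor nuclei.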

Additional observations from a re-analysis of the deposited data

How the results depend on the processing

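Limits on these results are 1 library, few blood molecules and a mitochondrial limit that removed 69.4% of the barcodes. Of 246 alternative values for the main results, 202 stayed within the counting interval or within 1.5 times the count, 42 moved and 2, both past the 2-fold limit before, reversed; Hoxd ATAC, which was under that limit, changed sign too. Of 168 for single Hox genes, 166 stayed, and Hoxb4 changed direction in 3 of 12.

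With all features' median set to 0, the log2 ratio of Hoxa ATAC, stromal over blood, reversed to -0.25 and that of Hoxb to -0.45, Hoxc was 1.39 and Hoxd -0.60, 51 Hox peaks were higher and 32 lower, the limb lists' median was 3.78 and 3 Polycomb genes were lower. For reticular over osteoblast nuclei it gave 0.54 for all Hox RNA, 1.10 for Hoxa and 0.070 for Hoxc RNA, and 0.22, -0.55, -0.053 and 0.78 for Hoxa, Hoxb, Hoxc and Hoxd ATAC. At a 20% mitochondrial limit, stromal over blood ATAC was 0.96 at Hoxa and 0.62 at Hoxd, and reticular over osteoblast ATAC 0.27 and 0.56. With no limit these were 0.88, 0.61, 2.22 and 0.39 for Hoxa, Hoxb, Hoxc and Hoxd with 12 peaks lower, and 0.26, 0.062 and 0.52 at Hoxa, Hoxc and Hoxd in reticular over osteoblast nuclei.

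A gate ratio of 4 gave a log2 ratio of 3.56 for all Hox RNA, 3.66 for Hoxa RNA and 1.07 for Hoxd ATAC, 1000 UMIs gave 2.63 for Hoxc ATAC, the granule and globin gate 2.05 for Hoxc ATAC and 3 peaks lower, and a gate from ATAC counts, whose limits were set after seeing the data, 1.33 for Hoxa ATAC and 3 peaks lower. At 2 times the count minimum 2 peaks were lower. At 1.5-fold 8 peaks and 9 Polycomb genes were lower, and at 3-fold 0 and 3. Without the 4 progenitor nuclei, added after seeing the data like all reticular over osteoblast alternatives, all Hox RNA was 4.05, Hoxa RNA 4.61, Hoxa3 4.44, Hoxa9 3.65, Hoxb ATAC 1.23 and 3 peaks were lower. The causes were not tested.

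No paired analysis was possible because there was 1 library of each kind.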
